A study of Mus musculus with 6 samples.

Results

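A set of 9 genes used to mark neural progenitors and neurons was followed in mouse induced pluripotent stem cells (iPSCs) that lack the microRNA miR-34a. The genes are Nefl, Nefm, Nes, Olig2, Sox1, Pax6, Tubb3, Map2 and Ncam1. They were taken by symbol, all 9 were found among the 41388 gene rows of the deposited count table, and all 9 passed the filter on low counts. Poly(A) RNA was sequenced in 6 libraries, 3 from miR-34a-/- lines (knockout) and 3 from wild-type lines, all C57BL/6. Every line came from fibroblasts of E13.5 littermate embryos, reprogrammed with pMX retroviruses carrying mouse Oct4, Sox2 and Klf4, then picked as a single colony and expanded on irradiated fibroblast feeders. So the wild-type lines carry the same vectors and feeders as the knockout lines, and each library stands for 1 clonal line. The sources used here do not say which lines share an embryo. P-values weigh the difference against the spread between lines. If the lines of a genotype share an embryo, the p-values do not reach beyond that embryo.

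During neural induction, epiblast cells switch on the transcription factors SOX1 and PAX6 and become neuroepithelium, whose cells carry nestin as their intermediate filament. OLIG2 then marks the progenitors of motor neurons and oligodendrocytes, and maturing neurons assemble neurofilaments, a neuronal beta-tubulin and the microtubule-associated protein MAP2. The repressor REST holds many neuronal genes down in other cells. Pluripotent stem cells are not neural cells, and neural genes are usually read at low or moderate levels in them.

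Pluripotency markers were strongly expressed in all 6 libraries, and genes of the neuron list were also read, some at high levels. Levels are CPM, counts per 1000000 gene counts of a library after TMM scaling, given as mean ± SD over the 3 lines of a genotype. Total counts ran from 8432597 to 29654855 per library. The summed level of 12 pluripotency markers was 8724 to 9136 CPM in the knockout libraries, against 7466 to 7629 CPM in the wild-type libraries, and 7 of them rose, 3 fell and 2 were not called (83.3% called, against 50.5% of all tested genes by the rule given with the 9 genes). The 42 genes of the neuron list summed to 1888 to 1977 CPM in knockout libraries, against 1922 to 2059 CPM in wild-type libraries. The migrating-neuron marker Dcx had at most 1 count in a library, and the adult-neuron marker Rbfox3 stood at 1.14 ± 0.445 CPM across knockout lines, against 1.32 ± 0.171 CPM across wild-type lines. The levels of the 9 genes do not show whether neural cells were present. The Mir34a locus collected 1 count over the knockout lines and 2 over the wild-type lines, which is too few to check the labels. The groups also stood apart in Y-linked expression: Ddx3y, Eif2s3y, Kdm5d and Uty summed to 0.122 to 0.357 CPM in knockout libraries, against 38.2 to 41.1 CPM in wild-type libraries. The 8 tested Y-linked genes had a median log2 fold change of -6.40, and 6 of them were lower. The summed level of the 8 overlapped, at 69.2 to 131 CPM in knockout libraries, against 101 to 197 CPM in wild-type libraries. The sex of the lines is not stated in the labels, and for every gene below a difference of genotype and a difference of sex chromosomes cannot be told apart.

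Of the 9 genes, 5 were lower and 3 higher in the knockout, and Nefm was not called. Nefl, Nes, Pax6, Olig2 and Map2 fell, with log2 fold changes (knockout over wild-type) from -1.0 to -0.49. Sox1, Ncam1 and Tubb3 rose, by 0.56, 0.41 and 0.20. A gene was called at an adjusted p under 0.05 in edgeR's quasi-likelihood test (Benjamini-Hochberg over 14717 tested genes). By that rule 50.5% of all tested genes were called, 26.5% higher and 24.0% lower, and the 8 calls among the 9 genes are to be read against those shares. When each library's trend of counts with transcript GC content was removed, 5 were lower and 1, Ncam1, higher. The median of the 9 genes was -0.49, beside 0.01 for all tested genes. The knockout and wild-type libraries did not overlap in 8 of the 9 genes, 5 of them lower and 3 higher, against 56.0% of all tested genes (26.9% lower and 29.2% higher). In size, the change of Nefl was exceeded by 10.4% of tested genes, that of Nes by 15.5%, and that of Tubb3 by 60.8%.

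**Figure D1:**
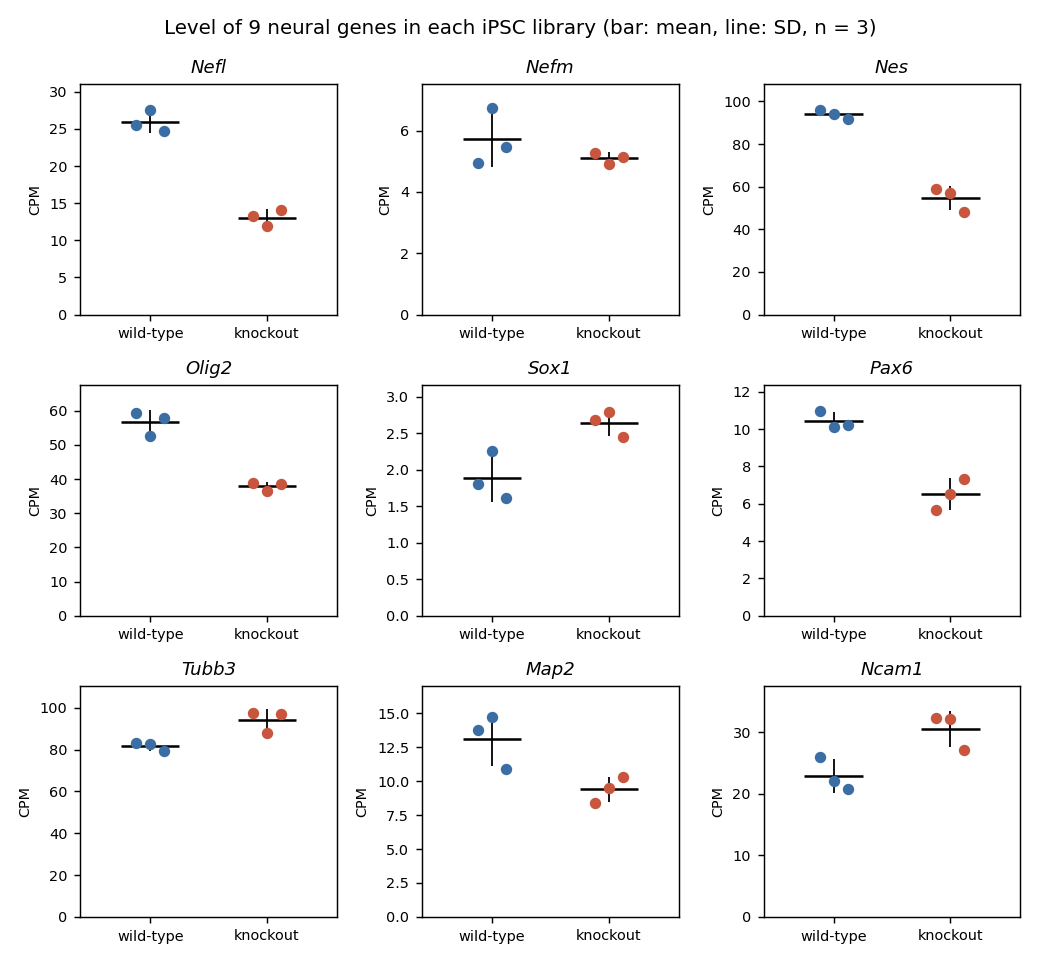
Level of each of the 9 genes in the 3 wild-type (blue) and 3 knockout (red) libraries, in CPM on axes that start at 0, with the mean as a horizontal bar and the SD as a vertical line. The knockout points lie below the wild-type points for Nefl, Nes, Olig2, Pax6 and Map2, above them for Sox1, Tubb3 and Ncam1, and among them for Nefm.

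**Figure D2:**
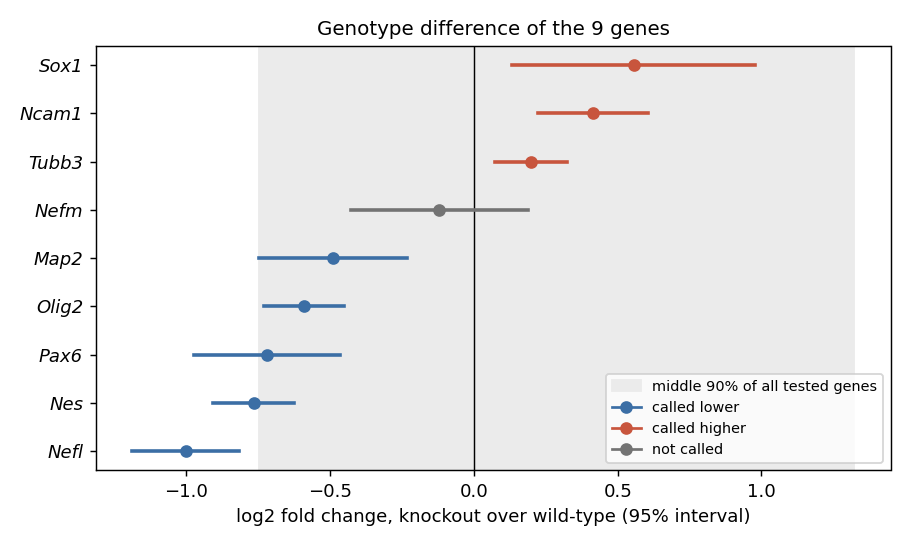
Log2 fold change of each gene (knockout over wild-type) with its 95% interval, coloured by call; the grey band spans the 5th to 95th percentile of all 14717 tested genes, -0.75 to 1.32. Nefl and Nes lie outside the band on the lower side, and the interval of Nefm crosses 0.

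The microRNA that the knockout lines lack pairs with messenger RNAs through bases 2 to 8 of its mature strand, the seed, and a perfect match in a 3′ UTR is the usual first mark of a possible target. The mature strand is shown with its seed in capitals (RefSeq, GRCm38.p6, chromosome 4, 150068473 to 150068494, plus strand).
mmu-miR-34a-5p: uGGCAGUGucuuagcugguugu

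The DNA letters that pair with the whole seed are CACTGCC. They were searched, on the transcript strand, in every GENCODE M21 coding transcript of the 9 genes that has an annotated stop codon. Only Tubb3 held them in a 3′ UTR, 89 bases after the stop codon, in 1 of 2 annotated transcripts. Of 13468 tested genes with such a transcript, 18.1% held at least 1 match in a 3′ UTR, with a median log2 fold change of 0.02, beside 0.00 for the genes without one. Matches in coding sequence were found in Pax6, Map2 and Ncam1. A match anywhere in such a transcript was held by 37.6% of the 13468 genes. The matches are printed 5′ to 3′ with the 7 letters in capitals, because they show where the seed of the missing microRNA could pair.
Tubb3, 3′ UTR, chr8:123421771-123421777, plus strand: tctagctactgaCACTGCCcccagctttgc
Pax6, coding, chr2:105683876-105683882, plus strand: tcaacgggcggcCACTGCCggactccaccc
Map2, coding, chr1:66425452-66425458, plus strand: ttattaaccaacCACTGCCggacctgaaga
Ncam1, coding, chr9:49565540-49565546, minus strand: catcgtgaatgcCACTGCCaacctgggcca
Ncam1, coding, chr9:49546207-49546213, minus strand: agaatacatctgCACTGCCagcaacaccat

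The gene with the 3′ UTR match had the smallest of the 3 rises. Of the 3 genes with coding matches, Ncam1 rose while Pax6 and Map2 fell. The remaining 5 genes, Nefl, Nefm, Nes, Olig2 and Sox1, had no match in any searched transcript, and these include the 2 genes with the largest decreases, Nefl and Nes. A match is a run of letters, and binding was not measured.

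Sox1 (ENSMUSG00000096014, chromosome 8, 12395295 to 12400126, mm10) encodes the earliest neuroectoderm-restricted SOX factor. It was the least abundant of the 9 genes in CPM, with 2.68, 2.79 and 2.45 CPM in knockout replicates 1 to 3, against 1.80, 2.25 and 1.61 CPM in wild-type replicates 1 to 3. Each knockout line lay above each wild-type line, but only by 0.20 CPM at the closest pair. The log2 fold change was 0.56 (SE 0.20, 95% interval 0.13 to 0.98, edgeR adjusted p = 0.028). These values rest on 151 knockout counts against 87 wild-type counts, and the call was lost in 9 of 16 alternative settings, where the highest adjusted p was 0.22 (DESeq2). Leaving out knockout replicate 1, knockout replicate 2, wild-type replicate 1 or wild-type replicate 3 was enough to lose it, with edgeR adjusted p from 0.066 to 0.11.

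The proximal promoter of Sox1 is shown because it was the only one of those available for the 9 genes with a match to the core of the octamer, the element that POU5F1 (OCT4) binds. RefSeq promoters of GRCm38.p6, from 250 bases before to 50 after the start site, were listed for 6 of the 9 genes. They were searched on both strands for TGCAAAT (octamer core), CATTGT (a SOX-type element), CAGCTG (an E-box), CAGCACC and GGACAG (the left and right parts of the REST element) and TATAAA (the TATA box), all printed in capitals. No 2 of these matches overlap in the promoters shown. TGCAAAT occurred in 4.02% of 32851 promoters and began 19 bases after the RefSeq start site of Sox1. All offsets are counted from RefSeq start sites. The GENCODE coordinates printed for Sox1, Olig2, Nes and Tubb3 begin upstream of those sites. By them the Sox1 match lies further inside the gene.
Sox1 promoter, chr8:12395269-12395568, plus strand: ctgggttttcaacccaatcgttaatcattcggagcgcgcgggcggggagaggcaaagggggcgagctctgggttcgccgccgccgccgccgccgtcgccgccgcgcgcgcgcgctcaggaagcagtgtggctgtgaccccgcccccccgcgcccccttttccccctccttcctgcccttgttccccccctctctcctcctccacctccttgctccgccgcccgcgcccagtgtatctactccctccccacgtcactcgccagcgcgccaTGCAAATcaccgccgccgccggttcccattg

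Pax6 (ENSMUSG00000027168, chromosome 2, 105668900 to 105697364), the paired-box factor of radial glia and eye, changed in the other direction from Sox1. It was at 5.67, 6.54 and 7.35 CPM in knockout replicates 1 to 3 and at 10.98, 10.12 and 10.23 CPM in wild-type replicates 1 to 3. The highest knockout line stayed below the lowest wild-type line. Pax6 fell by 0.72 on the log2 scale (SE 0.12, edgeR adjusted p = 6.6e-05), to 0.607 of its wild-type level.

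Olig2 (ENSMUSG00000039830, chromosome 16, 91225457 to 91228677) encodes the basic helix-loop-helix factor of motor neuron and oligodendrocyte progenitors. It was at 38.8, 36.6 and 38.5 CPM in knockout replicates 1 to 3, against 59.4, 52.5 and 57.9 CPM in wild-type replicates 1 to 3. All 3 knockout lines were low and close together, with an SD of 1.19 CPM against 3.65 CPM in the wild-type lines. Olig2 fell by 0.59 (SE 0.07, edgeR adjusted p = 5.6e-07). Its neighbour Olig1, a related factor on the same chromosome (91269772 to 91271933), fell by 0.32 (SE 0.06, edgeR adjusted p = 0.00042), from 101 ± 5.20 to 80.6 ± 6.81 CPM. The third family member, Olig3, was low, at 0.836 ± 0.316 CPM across knockout lines against 2.44 ± 0.507 CPM across wild-type lines, and fell by 1.31 (SE 0.27, edgeR adjusted p = 5e-04).

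The Olig2 promoter is printed as that of a gene which fell in every setting tried. It held the SOX-type letters, found in 12.6% of all promoters, 68 bases before the RefSeq start site. The TATA letters, found in 13.6%, started 8 bases before that site. By the GENCODE coordinates given above, both matches lie inside the gene.
Olig2 promoter, chr16:91225300-91225599, plus strand: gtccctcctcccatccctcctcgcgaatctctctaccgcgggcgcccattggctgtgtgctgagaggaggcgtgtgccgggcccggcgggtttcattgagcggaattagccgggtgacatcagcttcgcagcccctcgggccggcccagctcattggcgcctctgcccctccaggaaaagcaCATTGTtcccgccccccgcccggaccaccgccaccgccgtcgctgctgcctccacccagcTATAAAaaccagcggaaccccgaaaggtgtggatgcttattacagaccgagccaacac

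Nes (ENSMUSG00000004891, chromosome 3, 87971078 to 87980451) encodes nestin, the intermediate filament protein of neural stem cells, which other dividing cells such as fibroblasts can also make. It was at 58.7, 57.0 and 48.1 CPM in knockout replicates 1 to 3, against 96.0, 94.2 and 91.7 CPM in wild-type replicates 1 to 3. The gap between the groups was wide, and knockout replicate 3, one of the shallow libraries, was the lowest. Nes fell by 0.77 on the log2 scale (SE 0.07, edgeR adjusted p = 2e-08), which is 1.70-fold. Of 17 tested fibroblast markers 12 fell and 2 rose, beside 24.0% of all tested genes lower and 26.5% higher. The part of fibroblast RNA in the Nes value was not tested. Its listed promoter held none of the 6 motifs and is printed beside that of Olig2, which fell alongside it. The listed promoters of Pax6, which also fell, held none either. The share of all promoters without any of the 6 motifs was not counted.
Nes promoter, chr3:87970843-87971142, plus strand: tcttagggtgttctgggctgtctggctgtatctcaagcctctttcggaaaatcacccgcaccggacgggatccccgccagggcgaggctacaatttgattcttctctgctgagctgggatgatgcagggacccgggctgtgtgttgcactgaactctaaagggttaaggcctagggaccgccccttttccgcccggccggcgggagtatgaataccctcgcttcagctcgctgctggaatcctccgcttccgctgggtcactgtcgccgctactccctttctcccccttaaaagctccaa

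The filament subunits of neurons did not move as 1 family. Neurofilaments are built from a light (Nefl), a medium (Nefm) and a heavy chain (Nefh) together with alpha-internexin (Ina) or peripherin (Prph). Nefl (ENSMUSG00000022055, chromosome 14, 68083863 to 68089095) was at 13.2, 11.9 and 14.1 CPM in knockout replicates 1 to 3, against 25.5, 27.5 and 24.7 CPM in wild-type replicates 1 to 3. The highest knockout line was well below the lowest wild-type line, and the fold was 2.0 (log2 fold change -1.0, SE 0.09, edgeR adjusted p = 2.2e-08).

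Nefm (ENSMUSG00000022054, chromosome 14, 68082590 to 68124846) was at 5.27, 4.89 and 5.14 CPM in knockout replicates 1 to 3, against 4.96, 6.75 and 5.47 CPM in wild-type replicates 1 to 3. The groups overlapped, with wild-type replicate 2, a shallow library, standing highest. The log2 fold change was -0.12 with a 95% interval of -0.43 to 0.19 (edgeR adjusted p = 0.52), and no alternative called it. The annotated Nefm gene runs across Nefl on the opposite strand, and 1108 bases, 32.8% of the Nefl exons, are exonic in both. The libraries are strand-specific per the labels, but the sources used here do not say whether the counting used strand, so reads from the shared bases may have been lost or assigned to either gene.

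Among their partners, Ina changed most. Ina was at 41.5, 37.8 and 45.4 CPM in knockout replicates 1 to 3, against 128, 138 and 138 CPM in wild-type replicates 1 to 3, a 3.28-fold decrease with widely separated groups (log2 fold change -1.71, SE 0.07, edgeR adjusted p = 1.8e-13). Whether counting used strand bears on Ina too, since 456 bases, 14.1% of its exons, are shared with Nt5c2 on the opposite strand, a gene with 4352 counts over the 6 libraries. Nefh, at 49.6 ± 5.67 CPM across wild-type and 61.3 ± 4.28 CPM across knockout lines, rose by 0.31 (SE 0.08, edgeR adjusted p = 0.0036), a call lost when library GC trends were removed (0.16, edgeR adjusted p = 0.061). Prph stood at 10.6 ± 1.83 CPM across knockout lines, against 8.30 ± 0.891 CPM across wild-type lines (log2 fold change 0.28, 95% interval 0.01 to 0.56, edgeR adjusted p = 0.076). Vim, the vimentin gene, whose protein copolymerizes with nestin, rose by 0.44, from 328 ± 49.6 to 443 ± 39.9 CPM (SE 0.12, edgeR adjusted p = 0.026) while Nes fell. That Vim call was lost without knockout replicate 1 or without knockout replicate 2, with adjusted p up to 0.093.

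**Figure D3:**
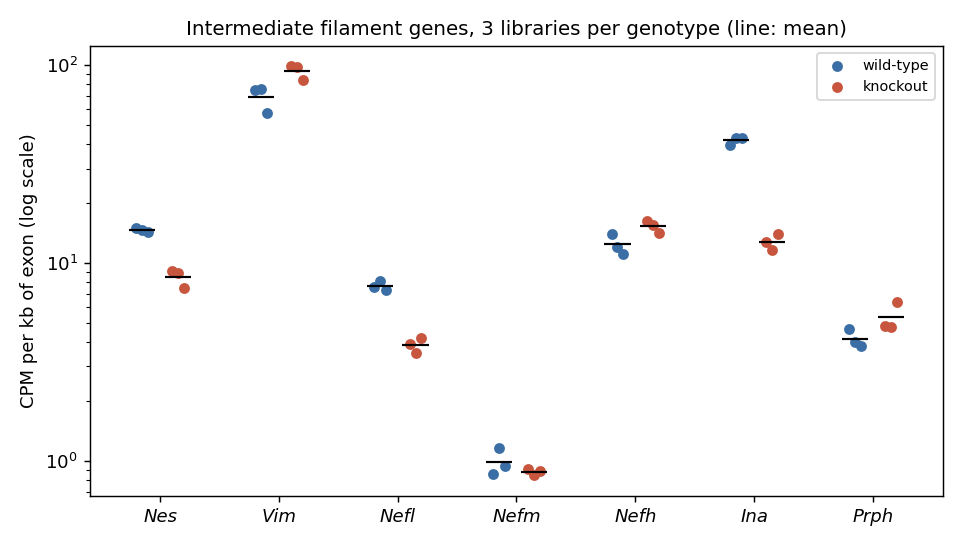
Level per length (CPM per kb of annotated exon, log axis) of 7 intermediate filament genes in each wild-type (blue) and knockout (red) library, with the mean of 3 libraries as a line. Nes, Nefl and Ina lie lower in the knockout libraries, while Vim, Nefh and Prph lie higher and Nefm overlaps.

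Tubb3 (ENSMUSG00000062380, chromosome 8, 123411424 to 123422015), the beta-tubulin used as a marker of newborn neurons, had the highest level of the 9 genes per exon length in both genotypes, while in CPM Nes stood above it in the wild-type lines. Tubb3 was at 97.4, 87.9 and 96.9 CPM in knockout replicates 1 to 3, against 83.4, 82.6 and 79.2 CPM in wild-type replicates 1 to 3. Knockout replicate 2 came within 4.47 CPM of wild-type replicate 1, and the groups did not overlap. Tubb3 rose by 0.20 on the log2 scale (SE 0.06, 95% interval 0.07 to 0.32, edgeR adjusted p = 0.0094), a change of 14.8%. Its transcript is GC-rich at 57.9%, and the tested genes of its GC decile had a median log2 fold change of 0.14. With library GC trends removed the value was 0.06 (edgeR adjusted p = 0.41), and without knockout replicate 1 it was 0.17 (edgeR adjusted p = 0.053). Sox1, in the same decile, went to 0.41 with GC trends removed (edgeR adjusted p = 0.097).

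The Tubb3 promoter is shown as the one with the most matches. Letters of both parts of the REST element occurred, but far apart and in the reverse order for their strand, so they are separate short matches. CAGCACC lay on the minus strand 121 bases before the RefSeq start site and GGACAG on the minus strand 12 bases after it. By the GENCODE coordinates, both lie inside the gene. The shares of all promoters with these letters were 7.14% and 22.2%. The SOX-type letters occurred at 146 and at 96 bases before the RefSeq start, the latter inside the gene by its GENCODE coordinates.
Tubb3 promoter, chr8:123411303-123411602, plus strand: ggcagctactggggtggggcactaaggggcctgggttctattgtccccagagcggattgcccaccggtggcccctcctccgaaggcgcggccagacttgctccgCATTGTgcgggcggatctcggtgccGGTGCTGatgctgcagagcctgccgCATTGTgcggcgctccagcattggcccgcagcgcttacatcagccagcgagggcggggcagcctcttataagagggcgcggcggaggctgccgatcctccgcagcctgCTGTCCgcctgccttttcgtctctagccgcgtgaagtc

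Map2 (ENSMUSG00000015222, chromosome 1, 66175273 to 66442583) encodes the dendritic microtubule-associated protein. It was at 8.41, 9.47 and 10.3 CPM in knockout replicates 1 to 3, against 13.8, 14.7 and 10.9 CPM in wild-type replicates 1 to 3. The groups were apart, though wild-type replicate 3 stood only 0.59 CPM above knockout replicate 3. Map2 fell by 0.49 (SE 0.12, edgeR adjusted p = 0.0026). Other microtubule genes went both ways. The tau gene Mapt and Tubb2a rose by 0.58 and 0.61 (SE 0.07 each, edgeR adjusted p = 6.5e-07 and 5.2e-07), and Map1b fell by 0.44 (SE 0.06, edgeR adjusted p = 7.2e-06).

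Ncam1 (ENSMUSG00000039542, chromosome 9, 49502136 to 49798925), a homophilic adhesion molecule of neurons and many early embryonic cells, rose. It was at 32.3, 32.2 and 27.2 CPM in knockout replicates 1 to 3, against 26.1, 22.1 and 20.7 CPM in wild-type replicates 1 to 3. The groups were separated by 1.14 CPM, between knockout replicate 3 and wild-type replicate 1. The log2 fold change was 0.41 (SE 0.09, edgeR adjusted p = 0.00098), or 1.33-fold. The adhesion gene L1cam also rose, by 1.2 (SE 0.16, edgeR adjusted p = 3.8e-06), and it is X-linked.

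Divided by annotated exon length, the order of the 9 genes was nearly the same in both genotypes. In the wild-type lines Tubb3 led at 43.8 ± 1.18 CPM per kb, followed by Olig2 at 22.4 ± 1.44, Nes at 14.6 ± 0.338, Nefl at 7.67 ± 0.422 and Ncam1 at 2.65 ± 0.319 CPM per kb. Nefm, Pax6 and Map2 followed between 0.661 and 1.17 CPM per kb with overlapping ranges, and Sox1 was lowest at 0.39 ± 0.0679 CPM per kb. In the knockout lines Tubb3 stood at 50.4 ± 2.87, Olig2 at 15.0 ± 0.471 and Nes at 8.51 ± 0.886 CPM per kb. There Nefl (3.87 ± 0.326) and Ncam1 (3.53 ± 0.335 CPM per kb) overlapped, unlike in the wild-type lines. Nefm stood at 0.882 ± 0.0329 CPM per kb, apart from Ncam1 above it and Map2 below it. Map2, Pax6 and Sox1 overlapped with one another, all between 0.485 and 0.628 CPM per kb. In bulk libraries, fewer cells with a transcript and less transcript per cell cannot be told apart.

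Beyond the 9 genes, neural progenitor genes split between the directions. Of 41 listed progenitor genes, 27 were tested, of which 9 fell, 6 rose and 12 were not called (55.6% called, against 50.5% of all tested genes), with a median log2 fold change of -0.07. The other 14 did not pass the count filter, and none of them exceeded 0.714 CPM in any library. Sox11, a SOX factor of early neurons, fell by 1.13 (66.6 ± 5.84 to 30.4 ± 0.971 CPM), Prom1, which encodes prominin, by 1.08, the Hedgehog effector Gli3 by 0.67 and the epiblast and neural POU factor Pou3f1 by 0.59, with edgeR adjusted p of 9.5e-06 or lower for each. Among those that rose were Sox3 (log2 fold change 0.77), Meis2 (0.91), the receptor gene Notch1 (0.57) and Lhx2 (1.01), with edgeR adjusted p between 0.00011 and 0.024. Lhx2, at 1.13 ± 0.458 CPM in the knockout lines, lost its call in 5 of 15 alternatives, among them without knockout replicate 1, knockout replicate 2 or wild-type replicate 3.

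Neuron genes also went both ways. Of 42 listed, 35 were tested, and 13 rose, 10 fell and 12 were not called. That is 65.7% called, against 50.5% of all tested genes (26.5% higher and 24.0% lower). The list's median log2 fold change was -0.06. Besides Ina, the decreases with the smallest p were those of Crmp1, an axon guidance phosphoprotein gene (105 ± 4.39 to 47.5 ± 3.03 CPM, log2 fold change -1.15), Syt11 (-0.89), the RNA-binding protein gene Elavl2 (-0.78), Map1b and Stx1a, a syntaxin of synaptic vesicle fusion (-0.73), all at edgeR adjusted p of 4.5e-05 or lower. Besides Mapt, Tubb2a and L1cam, the increases with the smallest p were those of Syn1, which encodes synapsin (0.86), Stmn2, a microtubule-destabilizing stathmin (0.41), and the ubiquitin hydrolase gene Uchl1 (0.50), all at edgeR adjusted p of 1.5e-06 or lower.

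All 5 tested X-linked genes of the progenitor and neuron lists rose, Sox3, Syn1 and L1cam among them. The 512 tested genes of the X chromosome had a median log2 fold change of 0.37, whereas the chromosomes that carry the 9 genes had medians from -0.07 to 0.02. All 4 Y-linked genes named above were called lower. On the autosomes alone, 4 progenitor genes rose and 9 fell of 25 tested, and 10 neuron genes rose and 10 fell of 32 tested. Over all chromosomes, 26.5% of tested genes were higher and 24.0% lower.

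**Figure D4:**
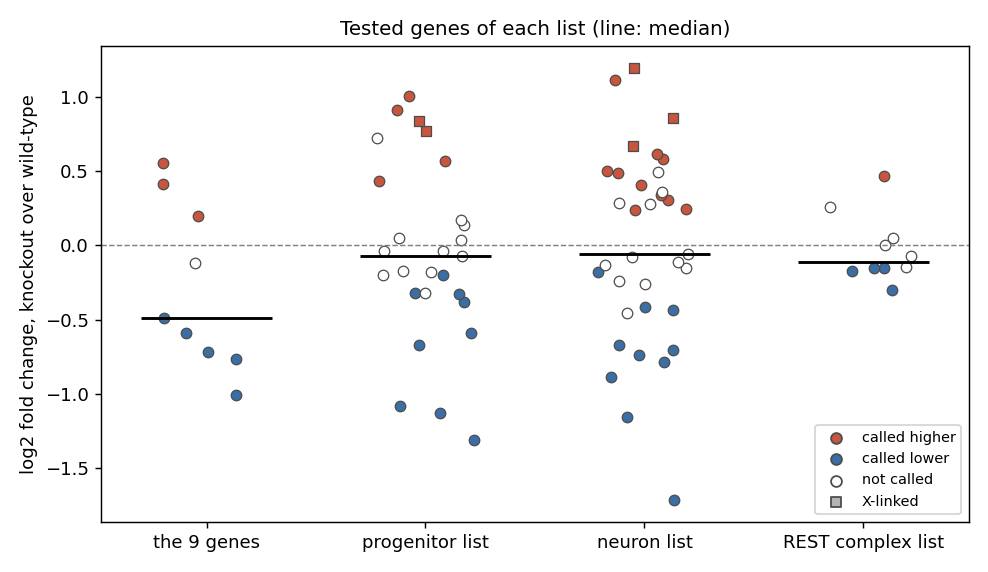
Log2 fold change (knockout over wild-type) of the tested genes in each list, filled by call, with squares for X-linked genes and a line at the median of each list. The progenitor and neuron lists spread to both sides of 0, from -1.31 to 1.01 and from -1.71 to 1.2, with medians of -0.07 and -0.06.

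Genes of the REST complex list had small differences, from -0.30 to 0.47 on the log2 scale among 10 tested. Rest stood at 398 ± 21.8 CPM across knockout lines, against 442 ± 24.9 CPM across wild-type lines, a log2 fold change of -0.15 (SE 0.06, edgeR adjusted p = 0.037) with overlapping groups, and 6 of 16 alternatives lost the call. Of the 10 listed genes, 4 fell, 1 rose and 5 were not called, so 5 of 10 were called, beside 50.5% of all tested genes. The cofactor gene Rcor2 rose by 0.47 (SE 0.05, edgeR adjusted p = 6.6e-07), and Hdac1, a histone deacetylase gene, fell by 0.30 (SE 0.05, edgeR adjusted p = 0.00012). Sin3a and Ehmt2 had log2 fold changes of -0.15 and -0.17 (edgeR adjusted p = 0.019 and 0.022). Leaving out single libraries left 2 genes lower without knockout replicate 2 or wild-type replicate 1, and 1 without wild-type replicate 2.

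Fibroblasts were present as feeders and were the source of the lines, and their markers also differed with genotype. Of 19 listed, 12 fell, 2 rose and 3 were not called among 17 tested, whereas 24.0% of all tested genes were lower and 26.5% higher. Their summed level was 2494 to 2740 CPM across knockout libraries, against 3004 to 3270 CPM across wild-type libraries. Most of that sum was the fibronectin gene Fn1, which was not called, at 2015 CPM across knockout and 2134 CPM across wild-type lines. The list's median log2 fold change was -0.74. Lum and Fap were at 0 in all knockout libraries and at no more than 0.129 CPM in any, whereas the collagen gene Col1a1 averaged 127 CPM across knockout and 253 CPM across wild-type lines. The smooth-muscle actin-binding gene Tagln fell to 46.6 ± 0.902 CPM from 163 ± 7.95 CPM, and S100a4 rose to 70.7 ± 3.45 CPM from 23.4 ± 2.88 CPM. Nes, Vim, Ncam1 and Tubb3 can be made by fibroblasts too, and the part of fibroblast RNA in their values was not tested. Glial markers were low in sum, 75.1 to 90.3 CPM, with Gfap at 0.326 ± 0.0632 CPM across knockout lines, against 0.215 ± 0.103 CPM across wild-type lines.

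Genes whose level followed that of Nefl most closely across the 6 libraries were Pgap1, Cap1 and Ppie (Pearson's r of log2 CPM 0.999 for each). An r above 0.95 with Nefl was found for 7.79% of tested genes. The closest to Map2 were Cenpp, Tnfrsf19 and Tex10 (r of 0.99 for each), and 0.856% of tested genes exceeded 0.95. The 6 libraries share 2 genotypes, so these are descriptions with no test.

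**Figure D5:**
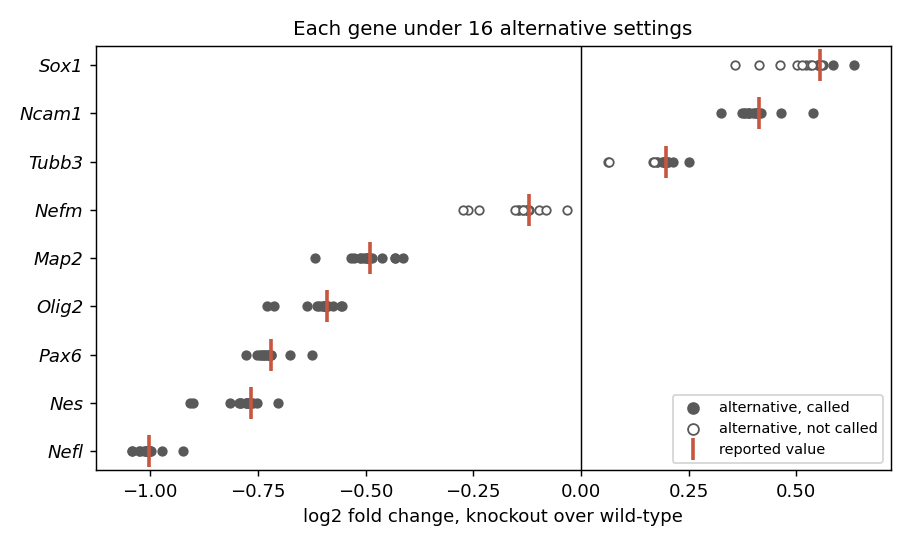
Log2 fold change (knockout over wild-type) of each gene under 16 alternative settings, filled where called and open where not, with the reported value as a red bar. Each of the 9 genes kept its sign throughout, and Nefl, Nes, Olig2, Pax6, Map2 and Ncam1 were called in all 16.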

How the data were processed

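The authors' deposited table holds raw counts per gene or repeat family for 6 poly(A) libraries, not normalized. Per the submitters' processing notes, the build was mm10 and the tools included featureCounts 1.4.5 and TopHat2 2.0.11. The sources used here do not give the counting options. Depth was 8432597 to 29654855 counts per library, and in the shallowest 3 counts equal 0.375 CPM. A second run's 6 columns match no label and were not used. The 902 repeat family rows stayed out of library sizes and tests.

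Symbols, coordinates and exon lengths came from GENCODE M21 (GRCm38), which matched 40254 of 41388 gene identifiers and all 143 listed genes. Groups follow the genotype in the labels. The 9 genes and the 7 lists were chosen with earlier results of these data known.

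The test was that of edgeR 4.0.16 (R 4.3.3): filterByExpr, TMM, glmQLFit with robust = TRUE and glmQLFTest, two-sided, no covariate, 3 against 3 lines, with Benjamini-Hochberg adjustment. SE is the log2 fold change over the square root of F. The steps were tested on simulated data. P-values weigh the difference against the spread between lines, which may share an origin. Each pair of replicates differed by more than sampling noise (chi-square per degree of freedom at least 2.25).

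Named genes beyond the 9 are Nefh, Ina, Prph, Vim, Olig1 and Rest, the 6 called genes with the smallest p per direction in each neural list, and the 3 genes most like Nefl and Map2. A gene this rule names is not reported here. Dcx, Rbfox3, the Y-linked genes and the cell type markers named are outside this rule and were chosen after their values were seen. Alternatives were DESeq2 size factors, library totals, DESeq2 1.42.0, limma voom 3.58.1, 2 other filters, a replicate block, removal of library GC trends (lowess), both together, robust = FALSE and each library left out.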

Additional observations from a re-analysis of the deposited data

How the results depend on the processing

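Of 160 recomputed counts of called genes over 16 alternatives, 151 were within 1.5 times the reported count, and no fold change of the 9 genes reversed. Removing library GC trends left 1 of the 9 genes called higher, Ncam1, in place of 3, alone and together with the replicate block, while 5 stayed lower in both. In the REST complex list these settings called 2 genes higher in place of 1. Leaving out each library in turn gave 1 to 3 of the 9 genes higher and 5 lower. It gave 3274 to 4146 genes higher and 2844 to 3839 lower over all tested genes, 4 to 7 and 7 to 9 in the progenitor list, 10 to 13 and 9 to 12 in the neuron list, and 1 to 2 and 1 to 4 in the REST complex list. REST complex genes called lower numbered 2 without knockout replicate 2, 2 without wild-type replicate 1 and 1 without wild-type replicate 2, against 4. Tubb3 lost its call under GC removal (0.06), under GC removal with the replicate block (0.07) and without knockout replicate 1 (0.17, edgeR adjusted p = 0.053). Sox1 lost its call under DESeq2, no filter beyond 1 count, the replicate block (edgeR adjusted p = 0.059), GC removal with and without that block, and without knockout replicate 1, knockout replicate 2, wild-type replicate 1 or wild-type replicate 3, over a range of 0.36 to 0.56. By their labels, same-numbered libraries share only a number. Their deviations from the group means correlated at 0.0885, -0.0198 and 0.11, and those of differently numbered libraries at -0.116 to 0.0629. These few values cannot show whether the lines are paired. The replicate block changed no other call of the 9 genes and gave 4054 genes higher and 3779 lower in place of 3904 and 3529. Depth limits Sox1 most, with 18 counts in wild-type replicate 2.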
